A study of Mus musculus with 6 samples.

Results

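The DNA methyltransferase genes Dnmt1, Dnmt3a, Dnmt3b and Dnmt3l, and Uhrf1, which brings Dnmt1 to newly copied DNA, were followed probe set by probe set in mouse embryonic stem (ES) cells with and without Dicer. A probe set is a group of short array probes that reads 1 transcript or part of it. The 5 genes, of 18193 named on the array, have 13 probe sets of 45101, taken as all those whose platform annotation names exactly 1 gene that is among the 5. Dnmt3a had 5 of them, Dnmt1 3, Dnmt3b and Uhrf1 2 each and Dnmt3l 1. Total RNA was amplified into biotin-labelled cRNA and hybridised to Affymetrix arrays. The samples were 3 arrays of the Dicer +/- line D4, called heterozygous here, and 3 of the Dicer -/- line 27H, called null, both kept undifferentiated. Each genotype is 1 cell line, so genotype and line cannot be told apart. Nothing in the labels tells if replicate arrays are separate cultures. The p-values therefore measure only a spread between arrays that may be technical.

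Methylation of cytosine in CpG dinucleotides is laid down by the de novo enzymes Dnmt3a and Dnmt3b, with Dnmt3l as a cofactor that has no catalytic activity of its own. Dnmt1 copies the pattern onto the new strand after replication, and Uhrf1 recognises the hemimethylated sites and recruits it. ES cells hold all of these proteins and keep their methylation in balance with its removal by the TET enzymes. Dicer, a ribonuclease, cuts microRNA precursors into mature microRNAs, and the comparison asks which transcripts differ in its absence.

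The arrays were alike in scale, with a mean of 500 intensity units after trimming 2% of values at each end, while the median intensity was 49.0 to 52.7 in heterozygous and 44.9 to 46.5 in null arrays. The 5 ES cell markers Pou5f1, Nanog, Sox2, Zfp42 and Esrrb were bright in both lines, with a summed intensity of 44679 to 46431 in heterozygous and 43474 to 45053 in null arrays. Of 7 fibroblast markers, Postn was under 32 on every array and Lum averaged 18.5 in heterozygous and 30.9 in null cells, with overlap. Dcn was called higher in null cells, from 31.0 to 263, and Col1a1 lower, from 70.0 to 6.62. Col1a1 was under 32 on every null array, and Dcn read 18.4 and 16.0 on heterozygous replicates 1 and 3. Each met the minimum for a test, 32 on 3 arrays, only through the line where it was high, so the size of these differences is uncertain. Without being called, Col1a2 (63.7 to 36.9), Col3a1 (47.2 to 25.7) and Thy1 (171 to 119) were also lower on every null array. The summed intensity was 387 to 440 in heterozygous and 415 to 553 in null arrays, where Dcn was the largest part. The sum of 7 primitive endoderm markers was 893 to 1321 in heterozygous and 374 to 409 in null arrays, and its part in the results below was not tested. Dab2, which went from 683 to 155, made up most of that difference. Gata6 was also called lower, from 108 to 38.3, with null replicate 1 at 20.1. Gata4 read 63.8 and 62.1, and Afp, under 32 on all heterozygous arrays, averaged 23.1 in null cells. In bulk RNA, fewer cells of a type and less RNA per cell cannot be told apart. The Dicer1 probe sets read 1098 ± 39.2 and 1197 ± 62.2 (1427941_at) and 370 ± 32.5 and 368 ± 34.0 (1460571_at; SD, n = 3), and limma gave adjusted p values of 0.264 and 0.962. Which part of Dicer1 was deleted is not stated in the labels, so these readings check nothing about the genotype.

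The promoters of the genes are shown to set their CpG content and the motifs they hold side by side, as a description with no test. RefSeq (GRCm38.p6) gives 12 promoter windows for the 5 genes, each running from 250 bases before a transcription start to 50 after it. For each gene the window with the most CpG dinucleotides is printed, and for Dnmt3a also the window of its most downstream start, since transcripts from that start lack the first exons. Capitals mark matches to an E2F site (TTTNGCGC), a GC box (GGGCGG) and a CCAAT box (CCAAT) on either strand, and overlapping matches were counted separately.
Dnmt3a, upstream start, chr12:3806910-3807209, plus strand: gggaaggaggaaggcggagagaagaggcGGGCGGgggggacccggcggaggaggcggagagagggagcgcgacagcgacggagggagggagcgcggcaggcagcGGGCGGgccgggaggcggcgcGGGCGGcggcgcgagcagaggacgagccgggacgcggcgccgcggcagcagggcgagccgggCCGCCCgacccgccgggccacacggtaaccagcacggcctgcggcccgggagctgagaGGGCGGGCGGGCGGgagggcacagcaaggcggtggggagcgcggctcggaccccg
Dnmt3a, downstream start, chr12:3891494-3891793, plus strand: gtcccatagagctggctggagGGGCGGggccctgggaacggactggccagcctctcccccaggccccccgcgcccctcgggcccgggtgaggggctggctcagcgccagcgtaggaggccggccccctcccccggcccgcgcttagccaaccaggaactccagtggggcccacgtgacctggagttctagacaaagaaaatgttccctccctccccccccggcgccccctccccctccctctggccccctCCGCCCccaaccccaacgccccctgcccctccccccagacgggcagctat
Dnmt3b, chr2:153649199-153649498, plus strand: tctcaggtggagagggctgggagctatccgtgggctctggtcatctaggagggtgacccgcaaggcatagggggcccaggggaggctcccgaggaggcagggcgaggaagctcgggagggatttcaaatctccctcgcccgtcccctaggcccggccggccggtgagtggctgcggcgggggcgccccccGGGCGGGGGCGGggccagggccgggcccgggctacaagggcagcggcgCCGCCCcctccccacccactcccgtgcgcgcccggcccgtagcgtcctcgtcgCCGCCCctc
Dnmt3l, chr10:78042037-78042336, plus strand: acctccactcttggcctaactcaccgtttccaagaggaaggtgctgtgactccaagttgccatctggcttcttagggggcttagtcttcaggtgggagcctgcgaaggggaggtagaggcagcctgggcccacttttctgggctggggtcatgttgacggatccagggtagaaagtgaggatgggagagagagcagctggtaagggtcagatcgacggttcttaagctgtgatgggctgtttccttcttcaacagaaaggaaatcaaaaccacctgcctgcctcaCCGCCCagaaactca
Dnmt1, chr9:20952574-20952873, minus strand: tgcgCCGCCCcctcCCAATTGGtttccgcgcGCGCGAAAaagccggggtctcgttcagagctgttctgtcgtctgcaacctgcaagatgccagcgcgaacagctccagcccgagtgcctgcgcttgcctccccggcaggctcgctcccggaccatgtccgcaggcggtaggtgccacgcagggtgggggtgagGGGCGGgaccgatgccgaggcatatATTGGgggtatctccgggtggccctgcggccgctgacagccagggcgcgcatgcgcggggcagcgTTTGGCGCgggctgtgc
Uhrf1, chr17:56304063-56304362, plus strand: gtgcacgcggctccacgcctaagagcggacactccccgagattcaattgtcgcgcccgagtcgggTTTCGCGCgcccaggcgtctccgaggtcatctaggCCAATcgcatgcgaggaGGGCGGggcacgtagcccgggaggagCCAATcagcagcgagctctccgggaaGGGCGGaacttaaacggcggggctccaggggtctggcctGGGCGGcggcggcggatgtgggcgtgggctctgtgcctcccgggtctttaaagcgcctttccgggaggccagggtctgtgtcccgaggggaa

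The windows of Dnmt1 hold 2, 12 and 33 CpG dinucleotides and those of Uhrf1 12 and 33. The median was 7 over all 32841 windows of that length. Windows were printed as the richest of their gene, so their counts are not comparable with that median. The printed windows of Dnmt3a hold 47 at the upstream and 18 at the downstream start, which lies 84764 bases beyond the first start of the table. The window of that first start holds 46. The Dnmt3b window holds 30. The 3 windows of Dnmt3l hold 6, 4 and 3. An E2F site was found in 1.38% of all windows. It was found in 2 of the 5 windows of Dnmt1 and Uhrf1, with 2 matches in Dnmt1 and 1 in Uhrf1, and in 0 of the 7 windows of the Dnmt3 genes. A CCAAT box, present in 37.4% of all windows, was in 4 of the 5 windows of Dnmt1 and Uhrf1 and in 0 of the 7. A GC box, present in 35.7%, was in 3 of the 5 and in 6 of the 7. The 2 upstream windows of Dnmt3a start 180 bases apart and overlap, so they share some of the same GC boxes and are not separate. A match is a description of the letters, and a window without one says only that these letters are not in it.

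**Figure D1:**
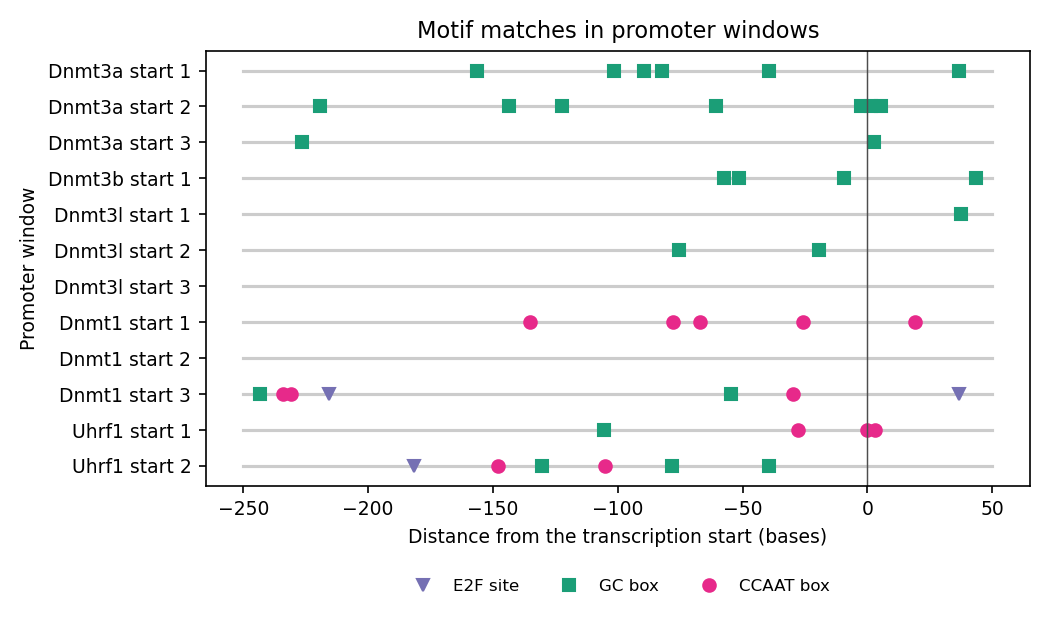
Matches to 3 motifs in the 12 promoter windows, drawn by distance from the transcription start in bases, with starts numbered along each gene in the direction of transcription. E2F sites appear in 2 windows, of Dnmt1 and Uhrf1, CCAAT boxes in 4 windows of the same 2 genes, and GC boxes in 9 windows of all 5 genes.

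By adjusted p alone, transcripts of the de novo group were lower in null cells on most of their probe sets. So was 1 of the Uhrf1 probe sets, at 67.5% of its heterozygous level, while 1 probe set of Dnmt3a and 1 of Dnmt1 were higher. None of Dnmt3b, Uhrf1 or Dnmt1 changed 2-fold. A probe set was called at a limma adjusted p under 0.05, over all 26545 probe sets tested, if it also differed 2-fold or more, which is 1 on the log2 scale. All 13 member probe sets passed the filter on low values. Of these, 4 were called lower in null cells, 3 of Dnmt3a and that of Dnmt3l, and 0 were called higher, where 6.32% of all tested probe sets were called lower and 5.97% higher. By adjusted p without the size threshold, 7 members were lower, against 21.2% of all probe sets, and 2 were higher, against 18.9% (9 against 40.1% in either direction). On 10 of the 13 the readings of both lines stood apart without overlap, against 51.3% of all. The median log2 difference, null minus heterozygous, was -0.57 over the members and -0.06 over all tested probe sets. Centring each array on its median moved the latter to 0.10, and the calls from 1585 higher and 1677 lower to 2186 and 1180, so differences under about this shift depend on the scaling.

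**Figure D2:**
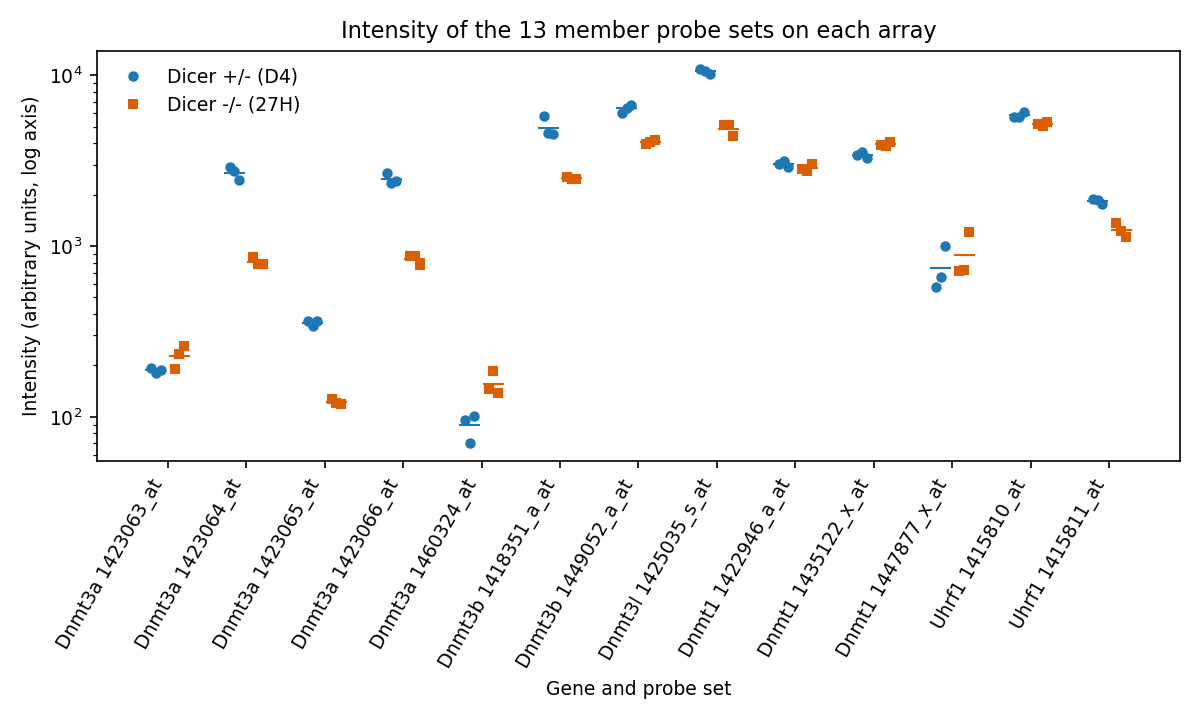
Intensity in arbitrary units (log axis) of the 13 probe sets on each of the 6 arrays, with heterozygous arrays as circles, null arrays as squares and the group mean as a line. Dnmt3a 1423064_at, 1423065_at and 1423066_at, both Dnmt3b probe sets, Dnmt3l and both Uhrf1 probe sets lie lower on every null array, while Dnmt3a 1460324_at and Dnmt1 1435122_x_at lie higher on every null array.

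Dnmt3a is a de novo methyltransferase that also works together with Dnmt3l. Its brightest probe set, 1423064_at, read 2887, 2747 and 2437 on the heterozygous arrays and 859, 786 and 787 on the null arrays. Every null array was far below every heterozygous array. The means were 2690 ± 230 and 811 ± 42.1 (SD, n = 3), so the null cells held 30.2% of the heterozygous level. On the log2 scale this was -1.73 ± 0.09 (SE; limma, adjusted p = 4.04e-07), and 800 of the 26545 tested probe sets had a lower difference.

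A second bright Dnmt3a probe set, 1423066_at, read 2673, 2351 and 2410 in heterozygous and 873, 873 and 771 in null cells. Its difference, -1.56 ± 0.09 (SE), left 33.9% of the heterozygous level, with a limma adjusted p of 7.19e-07. The dimmer 1423065_at read 363, 342 and 362 against 127, 121 and 119, which left 34.4%, a difference of -1.54 ± 0.14 and an adjusted p of 1.34e-05. These 3 probe sets thus fell to about the same share of the starting level although their own intensities were far apart.

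The remaining Dnmt3a probe sets did not fall. Probe set 1423063_at read 193, 180 and 187 in heterozygous and 190, 235 and 261 in null cells, and the lines overlapped. Its log2 difference was 0.28, with a 95% interval from -0.08 to 0.63 and a limma adjusted p of 0.204. Probe set 1460324_at was the dimmest of the 13 in heterozygous cells, at 95.5, 70.5 and 102 in heterozygous and 145, 185 and 138 in null cells. It was higher on every null array, by 0.81 ± 0.23 (SE), with an adjusted p of 0.0158, short of the 2-fold threshold. That adjusted p was 0.0535 without heterozygous replicate 2 and 0.0692 without null replicate 2. In heterozygous cells these probe sets lay at percentiles 67.3 and 59.0 of all probe sets by intensity, against 93.0 for 1423064_at.

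The platform annotation gives all 5 Dnmt3a probe sets the same accession. Dnmt3a is transcribed from more than 1 start, and its messenger RNA ends at more than 1 site, but the place of each probe set on the transcript was not analysed here, so none can be assigned to an isoform. RefSeq also lists a Dnmt3a pseudogene, Dnmt3a-ps1, on chromosome 3, and whether its sequence meets any of these probe sets was not analysed.

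**Figure D3:**
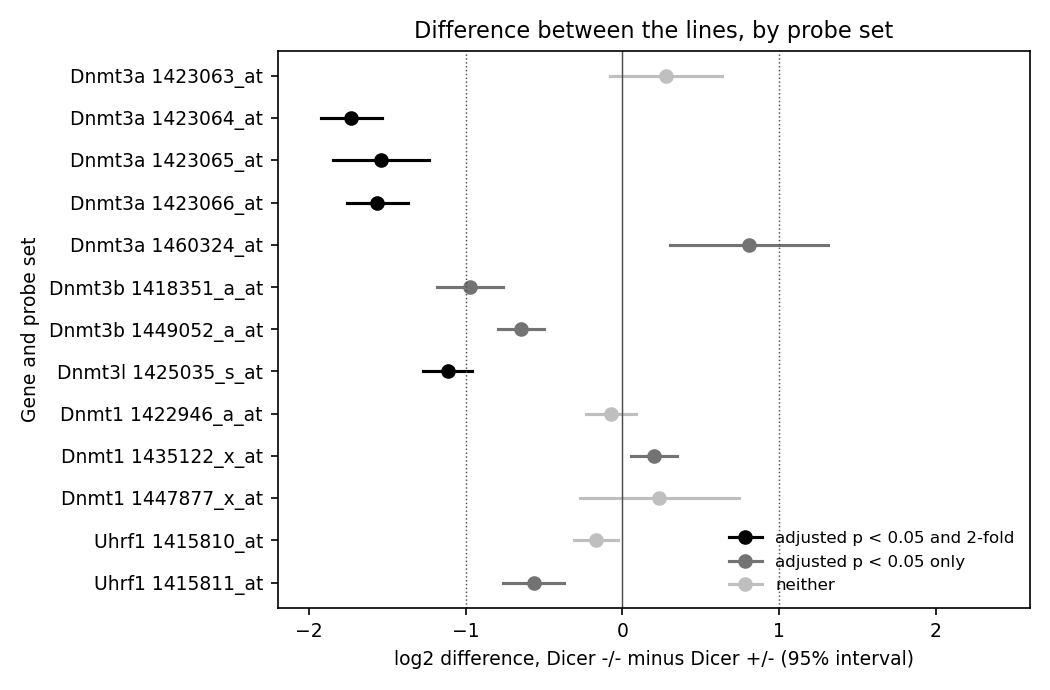
Log2 difference between null and heterozygous arrays for each of the 13 probe sets, with the 95% interval of the limma fit; dotted lines mark a 2-fold change. The 4 called probe sets, at -1.73, -1.56 and -1.54 for Dnmt3a and -1.12 for Dnmt3l, stand to the left, and Dnmt3a 1460324_at stands to the right at 0.81.

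Whether probe sets of 1 gene differed in their response was tested on the ratio of the pair within each array. Over all genes, 17505 pairs from 6107 genes were tested, and 3.39% were called by the same 2 criteria (5.42% by adjusted p alone). Of the 10 Dnmt3a pairs 6 were called, namely each of 1423064_at, 1423065_at and 1423066_at against each of 1423063_at and 1460324_at. By adjusted p alone the member pairs past the threshold were again these 6. Their differences in response ran from 1.82 to 2.54 in size, at limma adjusted p values from 0.00212 to 0.00829. The 3 that fell were not shown to differ from each other. Their pairs differed by 0.02 to 0.19, and the widest 95% interval, for 1423064_at against 1423065_at, ran from -0.55 to 0.18. Nor were the other 2 shown to differ, at -0.53 with an interval from -1.24 to 0.17. The pairs share probe sets and arrays and are not independent.

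The largest of these splits can be read off array by array. The log2 ratio of 1423064_at to 1460324_at was 4.92, 5.28 and 4.58 in heterozygous cells and 2.57, 2.08 and 2.51 in null cells. The groups stood apart by about 2 units, and 0.794% of all same-gene pairs had a larger difference. By adjusted p alone, Dnmt3a thus had 3 lower probe sets and 1 higher. Probe sets in both directions were found in 2.41% of the 6107 genes with at least 2 tested probe sets, and in 20 of the 260 genes with exactly 5. At least 1 called pair was found in 5.39% of the 6107 genes.

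**Figure D4:**
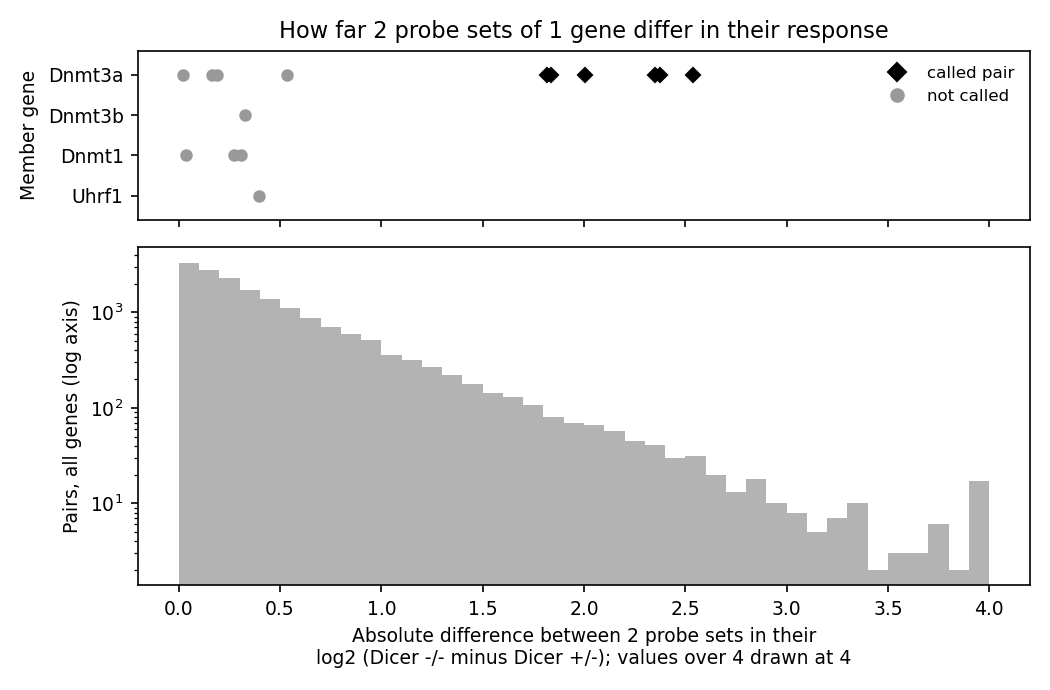
Above, the absolute difference in response, on the log2 scale, for the 15 pairs of probe sets within a member gene; below, the same for all 17505 same-gene pairs as a histogram with a log axis. The 6 called pairs, all of Dnmt3a, lie between 1.82 and 2.54, where the histogram is thin, and the other 9 lie at 0.53 or less; values over 4 are drawn at 4.

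Dnmt3b, the other de novo enzyme, was lower on both of its probe sets without reaching the 2-fold threshold. Probe set 1418351_a_at read 5735, 4563 and 4498 in heterozygous and 2553, 2476 and 2464 in null cells, with heterozygous replicate 1 above its fellows. The difference was -0.97 ± 0.09 (SE), which left 51.0% of the heterozygous level, with a limma adjusted p of 2.20e-05. It was past the threshold without heterozygous replicate 2 (-1.02) and without heterozygous replicate 3 (-1.03). Probe set 1449052_a_at read 6018, 6439 and 6699 against 3947, 4069 and 4203, at -0.65 ± 0.07, or 63.8% of the heterozygous level, with an adjusted p of 3.20e-05. The lines did not overlap on either. The pair differed by -0.33, with a 95% interval from -0.65 to -0.004 and an adjusted p of 0.238 over all pairs. In the RefSeq table the near copy Dnmt3b-ps1, also named Dnmt3c, lies on the same chromosome, and whether its transcripts meet these probe sets was not analysed.

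Dnmt3l, the catalytically inactive cofactor, had 1 probe set, 1425035_s_at, of a kind that can match several transcripts and the brightest of the 13 in heterozygous cells. It read 10810, 10564 and 10207 in heterozygous and 5084, 5087 and 4433 in null cells, with no overlap. The null cells held 46.2% of the heterozygous level, or -1.12 ± 0.07 on the log2 scale (SE; limma, adjusted p = 1.44e-06). With each array centred on its median the difference was -0.96, just short of the threshold of size. RefSeq lists a pseudogene, Dnmt3l-ps1, on chromosome 2.

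Dnmt1, the maintenance methyltransferase, was not called on any of its 3 probe sets, and their directions were mixed. Probe set 1422946_a_at read 3024, 3144 and 2887 in heterozygous and 2825, 2753 and 3037 in null cells, which overlap. Its difference was -0.07, with a 95% interval from -0.23 to 0.09 and a limma adjusted p of 0.458, and centring each array turned it to 0.08. The other probe sets are of a kind that may also match unrelated sequence. Probe set 1435122_x_at read 3424, 3553 and 3291 against 3891, 3866 and 4053, with every null array higher. The difference was 0.20 ± 0.06 (SE) with an adjusted p of 0.0299, which became 0.0502 to 0.0892 without any 1 of heterozygous replicates 1, 2 and 3 and null replicates 1 and 2. With each array centred on its median it was 0.36, with an adjusted p of 0.00411.

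The last Dnmt1 probe set, 1447877_x_at, varied between replicates more than between lines. It read 579, 663 and 995 in heterozygous and 710, 728 and 1209 in null cells. Replicate 3 was above its fellows in both lines, by 0.68 and 0.75 on the log2 scale, and 477 of the tested probe sets, or 1.80%, had a replicate 3 at least as far above the others in both lines. The difference between lines was 0.24, with an interval from -0.27 to 0.75 and a limma adjusted p of 0.448, and it was -0.01 without null replicate 3. Over 18 other settings of the processing the difference ranged from -0.01 to 0.46. Its limma adjusted p ranged there from 0.0414 to 0.966, and it was called in 0 of them. The intervals of all 3 Dnmt1 probe sets leave out a 2-fold change in either direction.

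Uhrf1, the partner that leads Dnmt1 to replicated DNA, had 1 probe set that was lower and 1 whose difference depended on the scaling. The brighter, 1415810_at, read 5671, 5713 and 6121 in heterozygous and 5187, 5017 and 5356 in null cells, at -0.17 with a 95% interval from -0.31 to -0.03. Its limma adjusted p was 0.0558, and 0.0287 without null replicate 3, but with each array centred on its median the difference was -0.015 with an adjusted p of 0.887. The dimmer, 1415811_at, read 1889, 1860 and 1764 against 1369, 1231 and 1131, at -0.57 ± 0.09 (SE), or 67.5% of the heterozygous level, with an adjusted p of 5.24e-04. The lines did not overlap on either probe set. The pair differed by 0.40 in response, with an adjusted p of 0.105 over all pairs.

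The genes were also set against each other by the change in the log2 ratio of their brightest probe sets, a change in a ratio and not a ratio of levels. The ratio of Dnmt3a to Dnmt3b differed by -1.08 between the lines, that of Dnmt3a to Dnmt3l by -0.61, and that of Dnmt3b to Dnmt3l by 0.47. The ratio of Dnmt1 to Dnmt3a differed by 1.93, to Dnmt3l by 1.32, to Dnmt3b by 0.85 and to Uhrf1 by 0.37. Dnmt1 was read here by 1435122_x_at (0.20), of a kind that may also match unrelated sequence. Its other probe sets were at -0.07 and 0.24, so its ratios also rest on the choice of probe set. With the probe sets used, the lines did not overlap in any of the 10 ratios, which share probe sets and are not independent. How often ratios of other genes stand apart was not computed. The exact two-sided permutation p was 0.1 in each of the 10, also after adjustment over them, and 0.1 is the smallest that 3 arrays against 3 can give. By these probe sets the order of the differences, from the lowest, was Dnmt3a, Dnmt3l, Dnmt3b, Uhrf1 and Dnmt1. As means over each gene's probe sets it was Dnmt3l (-1.12), Dnmt3b (-0.81), Dnmt3a (-0.75), Uhrf1 (-0.37) and Dnmt1 (0.12), and by limma Dnmt3l alone was called, so the place of Dnmt3a rests on the choice of probe set.

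The genes closest in pattern were found by the root mean square difference between log2 profiles over the 6 arrays, each centred on its own mean. For Dnmt3a these were Smco4, Tspan4 and Nphs1, at 0.052, 0.053 and 0.059 log2 units. For Dnmt3l they were Siva1, Rrp36 and Dctpp1, at 0.038, 0.040 and 0.044. Dnmt3b was closest to Ufsp2 (0.027), Foxp1 (0.032) and Dcun1d5 (0.034), Dnmt1 to Mepce, Acadsb and Dctn1 (0.020 to 0.025), and Uhrf1 to Ckap5, Srpk1 and Hnrnpm (0.024 to 0.028). With 6 arrays in 2 groups, this likeness is mostly the same difference between lines.

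The wider machinery of DNA methylation moved in both directions. Each gene was read by its brightest tested probe set, for which 7.10% of all 12927 genes were called higher and 6.06% lower, with a median of -0.01 on the log2 scale. With each array centred on its median, the list medians below were all higher and that of the partners turned to 0.08. Of 18 partners and accessory factors tested, 0 were called higher and 2 lower, with a median of -0.08. Dppa3, a maternal factor that binds Uhrf1 and restrains maintenance, fell from 528 ± 46.1 to 183 ± 22.3 (SD, n = 3). Uhrf2, a relative of Uhrf1, fell from 480 ± 56.5 to 205 ± 57.0, at -1.26 with a limma adjusted p of 3.93e-04, while a dim second probe set was at 0.41 (adjusted p 0.691). By adjusted p alone 2 were higher and 6 lower, where 23.2% and 23.1% of all genes were. Among these, chosen after their values were seen, Hells, a chromatin remodeller required for full methylation, was at -0.59 and Ehmt2 (G9a), a histone H3 lysine methyltransferase, at 0.66. Cdca7, the partner of Hells, was at -0.26 on its bright probe set, and its dim one, which was called lower, read 70.8 ± 8.61 and 9.74 ± 9.29, the latter under the filter value of 32.

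Of 12 genes tested that read or remove methylated cytosine, 2 were called higher and 1 lower, with a median of 0.03. Zbtb38, a zinc finger protein that binds methylated CpG, rose from 170 ± 23.2 to 499 ± 66.9 (SD, n = 3), or by 1.55 on the log2 scale (limma, adjusted p = 2.63e-05). A second Zbtb38 probe set, 1434687_at, also rose, at 2.22, and another, dimmer one was at 1.02 (adjusted p 0.413). The glycosylase Mbd4 fell on its brightest probe set (-1.48), with its other 2 at -0.82 and -0.56. Mbd1, another methyl-CpG binding protein, rose on 2 probe sets (1.34 and 1.13) and was at 0.15 on the third. Tet1 and Tet2, TET enzymes of ES cells, were chosen after their values were seen. Tet1 was at -0.71 on its brightest probe set and at -0.98, -0.92 and -0.63 on its others, and none of the 4 was called. Tet2, on its brightest probe set, read 869 ± 60.6 and 579 ± 49.4 (SD, n = 3), at -0.59 with a limma adjusted p of 0.00113, and was not called.

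In the methyl donor cycle, which makes S-adenosylmethionine, 13 genes were tested, with 0 called higher and 1 lower, with a median of 0.14. That median was 0.03 with a log2 filter of 7 and 0.29 with arrays centred on their medians. As means over each gene's probe sets it was -0.12, with 0 called, so its sign depends on the processing. Shmt1, a cytosolic serine hydroxymethyltransferase, fell from 3441 ± 284 to 1541 ± 63.6 (SD, n = 3), at -1.16 with a limma adjusted p of 2.58e-06. Its 4 probe sets split into 2 that were called, at -1.16 and -1.11, and 2 that were not, at -0.44 and -0.37. Gldc, which cleaves glycine for the one-carbon pool, was at -0.76 with an adjusted p of 3.34e-05. The high grey point of this list in the plot of gene lists is Nnmt, a nicotinamide methyltransferase chosen after its values were seen, at 10.4 ± 11.1 and 48.2 ± 6.85 with an adjusted p of 0.0608 by limma. By adjusted p alone 4 genes were higher and 4 lower.

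Of 15 transcription factors tested that are known or proposed to act on the Dnmt genes, 2 were called higher and 1 lower, with a median of 0.00. Rbl2, a pocket protein that represses E2F targets and has been described as a repressor of the de novo genes, read 133 ± 36.0 and 551 ± 80.3 (SD, n = 3), a rise of 2.08 with a limma adjusted p of 2.93e-05. Its relative Rbl1, chosen after its values were seen, was at 0.98, short of the threshold, and was called without heterozygous replicate 3 (1.12), without null replicate 1 (1.01) and with arrays centred on their medians (1.13). Prdm14, a repressor of Dnmt3b in naive ES cells, rose by 1.56 and Myc fell, at -1.24. By adjusted p alone 3 factors were higher and 5 lower.

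Of 15 germline genes tested whose promoters are silenced by methylation in other cells, 6 were called higher and 3 lower, with a median of 0.35. That median was 0.14 without the low-value filter and -0.22 without probe sets that share sequence (4 higher and 3 lower of 12). It was 0.56 with a log2 filter of 7 (4 higher and 1 lower of 10) and 0.50 with arrays centred on their medians. Sohlh2, an early germ cell factor, rose from 335 ± 26.2 to 1577 ± 76.3 (SD, n = 3) and the X-linked homeobox gene Rhox6 from 332 ± 35.1 to 1368 ± 40.2, at adjusted p values from limma of 1.54e-07 and 4.04e-07. Asz1, a germ granule protein, read 5.44 ± 5.67 and 46.8 ± 16.4, at 3.56 with a limma adjusted p of 0.0499. Its heterozygous readings were all under 32, so Asz1 passed the low-value filter through its null arrays only. It was at 0.49 with values under 32 raised to 32, and was not called there, with robust eBayes (adjusted p 0.0679) or without heterozygous replicate 1 or 2 (0.0576 and 0.0615). The 3 that fell, named after their values were seen, were the synaptonemal complex genes Sycp1 (-1.74) and Sycp3 (-1.38), and Taf7l (-1.30), a germ cell relative of a general transcription factor. Tex11, called higher and also named after its values were seen, read 24.5 on heterozygous replicate 2, and Taf7l read 19.7 on null replicate 2. Tex11 and Taf7l each needed the line where it was high to pass the low-value filter. With values under 32 raised to 32, 5 genes of the list were called higher and 3 lower.

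**Figure D5:**
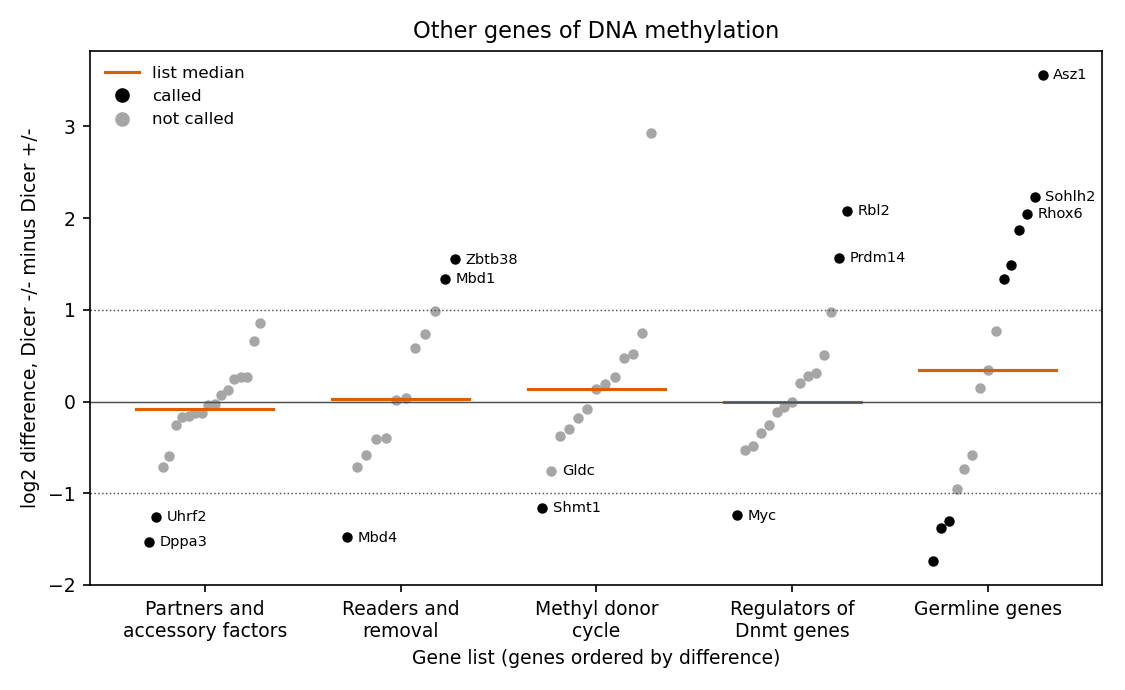
Log2 difference between null and heterozygous cells for the tested genes of 5 lists, ordered by size within a list, with called genes in black, the list median as a bar and dotted lines at a 2-fold change. The medians run from -0.08 to 0.35, and each list with over 1 called gene except the partners holds called genes in both directions.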

How the data were processed

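The authors deposited 1 intensity per probe set and array and the range of the values shows a linear scale. The submitters' processing notes name GCRMA, whose role is not given in the sources used here. The members, lists and tests were chosen with earlier results of these data known. The 64 control probe sets were left out. Values were turned into log2, and probe sets had to reach 32 (log2 of 5) in at least 3 of 6 arrays. Symbols came from the platform annotation, and the RefSeq gene table changed 0 of them. Tests used limma 3.58.1 in R 4.3.3 (lmFit and eBayes, trend by mean intensity) with the line as the model's single term, two-sided p-values and Benjamini-Hochberg adjustment over all probe sets, or over all same-gene pairs. Named genes are all member probe sets, Dicer1, up to 3 called genes per list by size (where fewer than 2 were called, the 2 with the largest difference at the adjusted p) and the 3 nearest profiles per member. On simulated data, 89.4% of probe sets changed by a log2 of 1.5 were called, with 14 of 24668 unchanged, and 72.7% of same-gene pairs, with 17 of 16117. At 0.75, under the threshold of size, 8.70% and 6.98% were. The simulated noise was independent between probe sets and arrays, with a single spread per level of intensity. It held no unusually noisy probe sets, so the rate of false calls in the real data may differ. The number of arrays limits the precision.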

Additional observations from a re-analysis of the deposited data

How the results depend on the processing

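The alternatives were other low-value filters, log scales, normalizations, variance priors and thresholds, the replicate number as a block, array weights, leaving out probe sets that share sequence, the mean over a gene's probe sets for the lists, and leaving out each array. The 3 called Dnmt3a probe sets kept their direction and call in all 19 settings, between -1.80 and -1.33, and so did the 6 called Dnmt3a pairs. With a fold of 1.5 as the threshold, 7 member probe sets, 6570 probe sets in all and 31 list genes were called, against 4, 3262 and 18. The 594 called same-gene pairs became 910 with values under 32 raised to 32, 332 without probe sets that share sequence, 218 at an adjusted p under 0.01, and 291 to 505 with 1 array left out (lowest without heterozygous replicates 1, 2 and 3, at 291, 312 and 380). Leaving out 1 array gave 4 to 5 called members, 6 member pairs, 2822 to 3179 probe sets and 15 to 19 list genes. The direction turned for values that were not called. Dnmt1 1422946_a_at was at 0.082 after centring each array on its median, and 1447877_x_at ranged from -0.013 (without null replicate 3) to 0.46 with 1 array left out. The pair of Dnmt1 1435122_x_at and 1447877_x_at (-0.03) was at 0.0033 with array weights and, with 1 array left out, ranged from -0.29 to 0.19, above 0 without heterozygous replicate 1 or 2 or null replicate 3. The pair of Dnmt3a 1423065_at and 1423066_at (0.02) ranged, with 1 array left out, from -0.018 (without heterozygous replicate 1) to 0.060, was also below 0 without null replicate 3, and was at 0.20 with 32 added to each value. The cause was not tested. As means over their probe sets, Uhrf2 was at -0.42, Mbd4 at -0.95, Mbd1 at 0.87 and Shmt1 at -0.77, none called, and Cdca7 was called, at -1.86. Among the members, Dnmt3a was at -0.75 and not called, and Dnmt3l alone was called.

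Replicate numbers are shared by the lines in the labels. Over all tested probe sets, deviations from the line means of same-numbered arrays correlated at 0.03, 0.03 and 0.08. These low values do not settle whether the numbers pair the samples, since single probe sets can still share a pattern. For Dnmt1 1447877_x_at, replicate 3 was above its fellows by 0.68 in heterozygous and 0.75 in null cells. The main fit left the replicate number out. With the replicate number as a block, 4 member probe sets, 3313 probe sets in all, 6 member pairs, 557 same-gene pairs and 17 list genes were called, and Asz1 was not (limma, adjusted p 0.0641).

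The deposited values carry no detection calls, so whether low readings such as those of Dnmt3a 1460324_at stood above background is unknown.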

Other observations

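Some genes of the lists were too dim for a test. Tet3 was at most 34.8 on any array, Mat1a 23.5 and Gnmt 48.8, and among germline genes Brdt, Tex101, Tdrd1 and Dpep3 reached at most 45.9, 37.4, 52.7 and 42.3.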
